A study of Mus musculus with 6 samples.

Results

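Genes of cholesterol synthesis and of lipid synthesis driven by SREBP, the sterol regulatory element-binding proteins, were examined in mouse embryonic stem (ES) cells that lack Dppa4. The 33 genes were chosen by name: enzymes from acetoacetyl-CoA to cholesterol, the SREBP regulators, and enzymes that make fatty acids and glycerolipids. All probe sets whose platform annotation gives exactly 1 of these symbols were used, 74 in all, and each gene was represented by the probe set with the highest mean over the arrays. Acat2 matched no probe set by this rule and was not analysed here, which left 32 genes of 18193 with a probe set of their own. The knockout group was the Dppa4 knockout ES cell line CI#243.12, and the control group was CI#84.2, the parental line, which is hemizygous for Dppa4. Each group was thus 1 cell line, represented by 3 arrays of total RNA, and both lines grew on mouse embryonic fibroblast feeders. The labels number the replicates but do not say that they were separate cultures, so the p-values rest on variation among these arrays alone, part of which may be technical.

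Cholesterol is built from acetyl-CoA through mevalonate, farnesyl diphosphate, squalene and lanosterol. SREBP precursors sit in the membrane of the endoplasmic reticulum, bound to Scap. When sterols are plentiful, the Insig proteins hold Scap there. When sterols fall, Scap carries the SREBPs to the Golgi, where proteases release the part that enters the nucleus and switches on these genes. Srebf2 encodes the form best known for sterol genes, and Srebf1 encodes the forms best known for fatty acid genes. Nuclear SREBPs bind sterol regulatory elements and some E-boxes and act with NF-Y and Sp1, which bind CCAAT and GC boxes.

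RefSeq promoter windows of the assembly GRCm38.p6, from 250 bases before to 50 bases after an annotated start, were held for 26 of the 33 genes, 34 windows in all. Printed below are the 250 bases before the start for 6 genes, written 5′ to 3′ on the strand of the gene. Hmgcs1 is shown for its sterol element and Insig1 for its E-box; Idi1, Nsdhl, Pmvk and Insig2 are those with the lowest p-values among the genes that have a window. Pmvk has 2 windows and Insig2 has 3, and the most upstream is shown. The windows of these genes that are not shown hold no CCAAT match. Which start these cells use is not known here. Capitals mark matches, on either strand, to TCACNCCAC (a form of the sterol regulatory element), CACGTG (E-box) and CCAAT (NF-Y, ATTGG on the other strand).
Hmgcs1, chr13:119690101-119690350, + strand: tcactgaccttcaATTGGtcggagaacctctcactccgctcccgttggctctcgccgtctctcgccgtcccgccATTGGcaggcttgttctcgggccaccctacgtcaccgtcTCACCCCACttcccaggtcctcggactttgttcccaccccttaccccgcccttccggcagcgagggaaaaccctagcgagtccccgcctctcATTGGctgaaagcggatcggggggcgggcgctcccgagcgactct
Insig1, chr5:28071162-28071411, + strand: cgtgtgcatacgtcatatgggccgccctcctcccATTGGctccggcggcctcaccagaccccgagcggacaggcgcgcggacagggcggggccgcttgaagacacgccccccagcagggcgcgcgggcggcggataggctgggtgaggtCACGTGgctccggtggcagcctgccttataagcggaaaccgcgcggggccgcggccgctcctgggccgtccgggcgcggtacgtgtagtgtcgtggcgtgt
Idi1, chr13:8885356-8885605, + strand: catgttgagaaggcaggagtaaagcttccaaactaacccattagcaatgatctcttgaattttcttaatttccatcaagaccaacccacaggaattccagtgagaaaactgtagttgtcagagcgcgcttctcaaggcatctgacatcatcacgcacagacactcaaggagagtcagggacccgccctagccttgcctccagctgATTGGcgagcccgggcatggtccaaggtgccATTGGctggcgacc
Nsdhl, chrX:72918271-72918520, + strand: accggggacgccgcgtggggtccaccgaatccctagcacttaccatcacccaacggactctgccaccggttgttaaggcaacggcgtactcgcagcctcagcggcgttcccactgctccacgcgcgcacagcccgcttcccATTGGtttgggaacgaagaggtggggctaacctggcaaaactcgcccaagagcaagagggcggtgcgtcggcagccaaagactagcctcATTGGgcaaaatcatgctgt
Pmvk, chr3:89454291-89454540, + strand: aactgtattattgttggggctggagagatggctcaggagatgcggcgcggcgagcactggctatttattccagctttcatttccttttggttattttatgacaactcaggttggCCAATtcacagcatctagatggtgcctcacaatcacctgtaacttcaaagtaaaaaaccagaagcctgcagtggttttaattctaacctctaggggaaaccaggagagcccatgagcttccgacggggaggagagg
Insig2, chr1:121332590-121332839, - strand: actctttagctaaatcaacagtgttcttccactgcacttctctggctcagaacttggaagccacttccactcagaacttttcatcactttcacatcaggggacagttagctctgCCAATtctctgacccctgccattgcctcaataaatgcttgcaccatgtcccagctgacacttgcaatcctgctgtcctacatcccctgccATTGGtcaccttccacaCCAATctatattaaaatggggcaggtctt

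CCAAT boxes and GC boxes were both found for most of these genes. The CCAAT box was in at least 1 window of 20 of the 26 genes (76.9%), against 41.1% of all 27025 genes with a window and 42.0% of those that also had a probe set of 1 gene. Counted by window, it was in 21 of 34 (61.8%), against 37.4% of all windows. All 9 genes of the squalene and sterol steps with a window held it, as did 5 of 6 mevalonate genes and 4 of 5 regulators, but 2 of 6 fatty acid genes. The sterol element was matched in 1 gene, Hmgcs1 (3.85%, against 1.44% of all genes and 1.46% of those with a probe set). CACGTG was matched in 5 genes (19.2%, against 8.09% of all genes and 10.2% of those with a probe set): Hsd17b7, Sc5d, Dhcr7, Insig1 and Scap. GGGCGG, the GC box, which is not capitalised, was in windows of 21 genes (80.8%, against 38.2% of all genes and 57.3% of those with a probe set). None of the 4 motifs contains another. These matches describe the letters in the window and do not show that a protein binds there.

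Expression was deposited as log2 values normalized by RMA (robust multi-array average), so differences below are log2 differences, knockout minus parental. A level belongs to its own probe set and does not rank genes against each other. Arrays correlated between 0.994 and 0.997. The Dppa4 probe set read 10.30, 10.35 and 10.45 in parental and 8.68, 8.84 and 8.68 in knockout samples, but whether it lies in the deleted part is not known here. Background was set at 3.79, the level below which 95% of 78 odorant and pheromone receptor probe sets had their mean. All 32 genes read above it. The samples are bulk RNA of ES cells and feeders, in which fewer cells of a type and less RNA per cell cannot be told apart.

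None of the 32 sterol and lipid synthesis genes passed the test between knockout and parental cells (limma, lowest adjusted p = 0.236, for Pmvk), where 0.605% of all genes and 0.402% of all probe sets passed. Their differences were small, from -0.18 for Fasn to 0.27 for Pmvk and Fdft1, and 22 (68.8%) were above 0 and 10 below, where 51.7% of all genes above background were above 0. The median was 0.10 with quartiles of -0.04 and 0.20, beside 0.01 with quartiles of -0.08 and 0.10 over the 13347 genes above background. At an unadjusted p under 0.05, which does not account for the number of genes tested, 7 were higher and 0 lower. That is 21.9% of the genes, where 5.69% of all genes above background were higher in this sense and 7.36% lower. The 7 were Pmvk, Idi1, Fdps, Fdft1, Sqle, Nsdhl and Insig2, 6 of them enzymes on the way from mevalonate to cholesterol. Groups did not overlap for 9 genes, with the knockout above in 8 (25%, against 8.5% of all genes above background) and below in 1 (3.12%, against 10.2%).

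**Figure D1:**
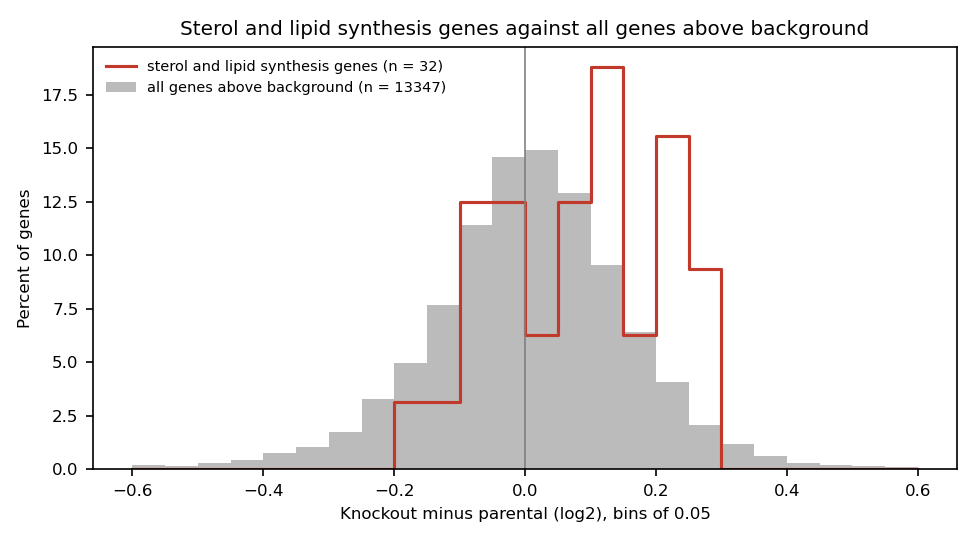
Percent of genes (vertical axis) by log2 difference, knockout minus parental, in bins of 0.05 (horizontal axis); grey bars are all 13347 genes above background and the red outline is the 32 sterol and lipid synthesis genes. The outline lies between -0.18 and 0.27, inside the grey distribution, with a median of 0.10 against 0.01.

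The arrays were precise enough to bound these differences. The median standard error (SE) was 0.09, and for all 32 genes the 95% interval lay within 1.5-fold in either direction, as it did for 92.2% of genes above background. A difference of 1.5-fold or more between the lines was therefore outside the interval of each gene on its representative probe set, while smaller ones cannot be told from 0 after adjustment. The upper bounds ran up to 1.47-fold, for Fads1, and the lower bounds down to 0.743-fold, for Fasn. RMA makes the distributions of the arrays alike, which would hide a change common to most transcripts.

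**Figure D2:**
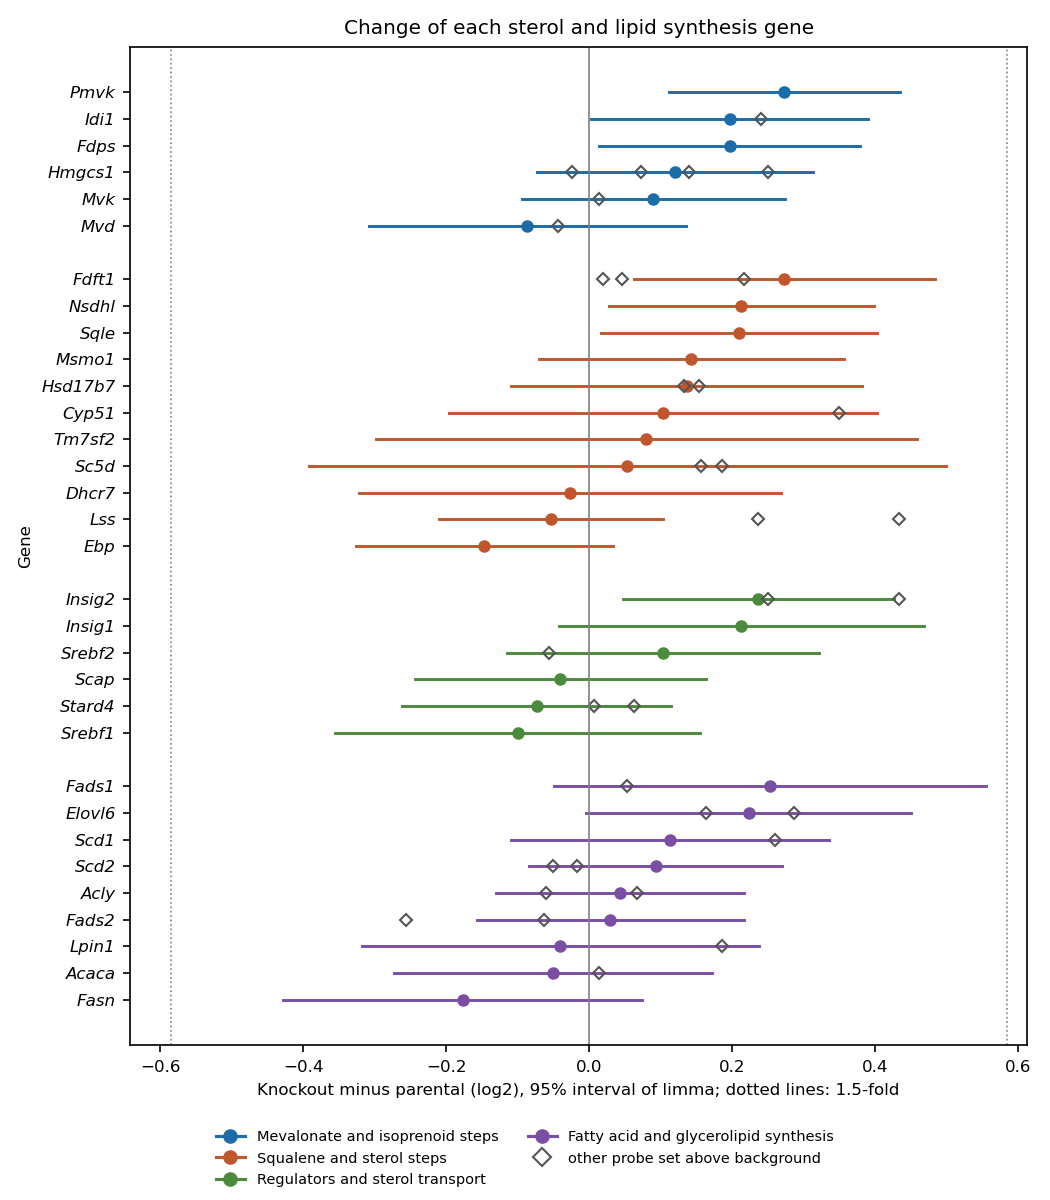
Log2 difference, knockout minus parental, of each gene (filled circle, representative probe set) with its 95% interval from limma, coloured by role; open diamonds are the other probe sets of the gene above background and dotted lines mark 1.5-fold. All intervals lie inside the dotted lines, and most circles of the mevalonate and sterol steps lie to the right of 0.

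Among the mevalonate and isoprenoid steps, 5 of 6 measured genes were higher in the knockout and the median difference was 0.16. Pmvk, the phosphomevalonate kinase, read 7.33, 7.37 and 7.27 in parental and 7.57, 7.61 and 7.61 in knockout samples. Its groups stood apart and the spread within each was small, with a difference of 0.27 (SE 0.07, adjusted p = 0.236, limma), or 1.21-fold with an interval of 1.08 to 1.35. Fdps, which makes farnesyl diphosphate, the branch point to sterols and prenylated proteins, read 10.07, 10.27 and 10.11 in parental and 10.37, 10.32 and 10.35 in knockout samples. Its knockout values lay close together, and parental replicate 2 lay nearest to them (difference 0.20, SE 0.08, adjusted p = 0.493).

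Idi1, the isomerase that supplies dimethylallyl diphosphate, read 9.38, 9.41 and 9.47 in parental and 9.50, 9.74 and 9.61 in knockout samples. Its groups were apart by a narrow margin (0.20, SE 0.08, adjusted p = 0.520), and its other probe set gave 0.24 with overlap. Hmgcs1, the synthase that makes HMG-CoA and whose promoter is printed above, read 10.70, 10.66 and 10.72 in parental and 10.78, 10.95 and 10.71 in knockout samples. Knockout replicate 3 fell within the parental range, and the difference was 0.12 (SE 0.08, adjusted p = 0.731). The other Hmgcs1 probe sets gave 0.25 with groups apart, and 0.14, 0.07 and -0.02 with overlap. Mvk, the kinase before Pmvk, gave 0.09. Mvd, the decarboxylase after it, was the one gene of these steps that was lower: 6.86, 7.06 and 6.97 in parental against 6.91, 6.72 and 7.0 in knockout samples, with overlapping groups (-0.09, SE 0.10, adjusted p = 0.844).

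The squalene and sterol steps had 8 of 11 genes higher, with a median of 0.10. Fdft1, squalene synthase, which commits farnesyl diphosphate to sterols, read 9.87, 10.09 and 9.87 in parental and 10.11, 10.26 and 10.28 in knockout samples. Parental replicate 2 lay almost at the lowest knockout value, and the difference was 0.27 (SE 0.09, adjusted p = 0.390). This probe set has the x_at ending, which marks possible cross-hybridisation. Of the gene's probe sets without it, 1448130_at gave 0.22 with 9.45, 9.70 and 9.48 against 9.73, 9.75 and 9.80. The other, 1438918_at, gave 0.05 with overlapping groups. Sqle, squalene epoxidase, read 8.84, 8.96 and 8.94 in parental and 9.04, 9.25 and 9.08 in knockout samples. Its groups stood apart (0.21, SE 0.08, adjusted p = 0.489). Nsdhl, an enzyme of C-4 demethylation, read 8.59, 8.76 and 8.62 in parental and 8.82, 8.84 and 8.95 in knockout samples, also apart (0.21, SE 0.08, adjusted p = 0.458).

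The other sterol enzymes lay closer to 0 than Fdft1, Sqle and Nsdhl on their representative probe sets. Cyp51, Lss and Sc5d had other probe sets with larger differences, given below. Msmo1, the C-4 methyl oxidase, gave 0.14, Hsd17b7, the ketoreductase of the same complex, 0.14, and Cyp51, the lanosterol demethylase, 0.10. Tm7sf2 and Sc5d, a sterol reductase and a sterol desaturase, had the widest standard errors of the 32 genes, 0.17 and 0.19, with differences of 0.08 and 0.05. In Sc5d, parental replicate 2 (8.93) and knockout replicate 3 (8.91) were high and parental replicate 3 (8.28) and knockout replicate 2 (8.29) low, so the spread within each line far exceeded the difference. Dhcr7, which completes one route to cholesterol, gave -0.03. Lss, lanosterol synthase, was the one gene whose knockout values all lay below the parental ones on the representative probe set, by a small margin: 7.92, 7.94 and 7.97 against 7.89, 7.91 and 7.87 (-0.05, SE 0.07, adjusted p = 0.868). That probe set has the s_at ending. The Lss probe sets without it, 1426913_at and 1420014_at, had the knockout above, by 0.43 and 0.24. Ebp, the sterol isomerase, was the lowest of these steps at -0.15 (SE 0.08, adjusted p = 0.622). It read 8.55, 8.68 and 8.60 in parental and 8.55, 8.44 and 8.40 in knockout samples, with 1 shared value.

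**Figure D3:**
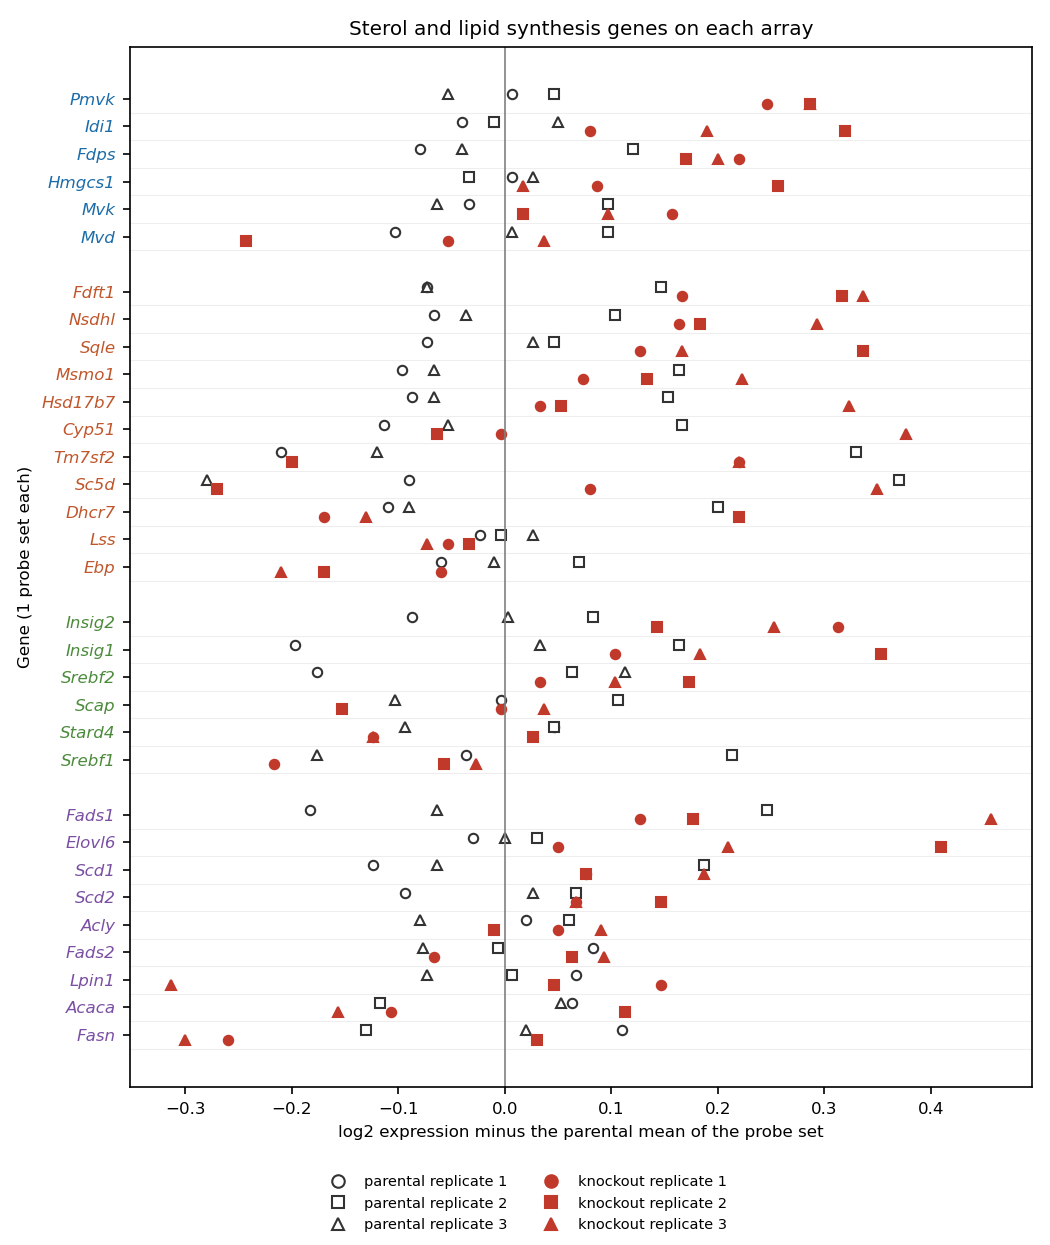
Log2 expression of each gene on each array minus the parental mean of that probe set (horizontal axis); open symbols are the 3 parental and filled red symbols the 3 knockout arrays, with a symbol shape per replicate number, and gene names are coloured by role. Pmvk, Fdps, Sqle, Nsdhl and Insig2 have all filled symbols to the right of the open ones, and the open square of parental replicate 2 is often the rightmost open symbol.

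The regulators divided evenly, with 3 genes higher and 3 lower and a median of 0.03. Insig2, an anchor that retains Scap in the endoplasmic reticulum, read 7.75, 7.92 and 7.84 in parental and 8.15, 7.98 and 8.09 in knockout samples. Its groups stood apart (0.24, SE 0.08, adjusted p = 0.410), and its other 2 probe sets were also higher, by 0.25 and 0.43. The last, 1417980_a_at, read 6.20, 6.06 and 6.10 against 6.64, 6.45 and 6.57 and had the lowest adjusted p of all 74 probe sets (0.0961, SE 0.08), still above the threshold of 0.05. Insig1, the anchor whose gene is itself a well known SREBP target, read 6.89, 7.25 and 7.12 in parental and 7.19, 7.44 and 7.27 in knockout samples. Here parental replicate 2 lay above knockout replicate 1 (0.21, SE 0.11, adjusted p = 0.611).

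The genes of the SREBPs themselves overlapped between the lines. Srebf2 read 7.21, 7.45 and 7.50 in parental and 7.42, 7.56 and 7.49 in knockout samples (0.10, SE 0.10, adjusted p = 0.804), and its other probe set gave -0.06. Srebf1 read 8.07, 8.32 and 7.93 in parental and 7.89, 8.05 and 8.08 in knockout samples (-0.10, SE 0.11, adjusted p = 0.844). Without parental replicate 2, its highest value, the Srebf1 difference was 0.0067. Scap, the escort protein gene, gave -0.04, and Stard4, which encodes a cytosolic sterol carrier, gave -0.07. These are transcript values, and SREBP activity is set largely by cleavage of the protein, which the arrays do not measure.

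Fatty acid and glycerolipid synthesis genes had a median of 0.04, with 6 of 9 higher and 0 at an unadjusted p under 0.05 (limma). Fads1, the delta-5 desaturase, had the largest difference of them, 0.25 (SE 0.13, adjusted p = 0.610). It read 7.25, 7.68 and 7.37 in parental and 7.56, 7.61 and 7.89 in knockout samples, so parental replicate 2 lay above 2 knockout values. Elovl6, which elongates palmitate, read 8.91, 8.97 and 8.94 in parental and 8.99, 9.35 and 9.15 in knockout samples. Its parental values were tight and its knockout values spread (0.22, SE 0.10, adjusted p = 0.534). Fasn, the fatty acid synthase, lay at the other end: 9.30, 9.06 and 9.21 against 8.93, 9.22 and 8.89 (-0.18, SE 0.11, adjusted p = 0.690), with knockout replicate 2 inside the parental range. Acly, which makes cytosolic acetyl-CoA, read 10.52, 10.56 and 10.42 in parental and 10.55, 10.49 and 10.59 in knockout samples (0.04, SE 0.08, adjusted p = 0.908). Scd2, a stearoyl-CoA desaturase, read 10.30, 10.46 and 10.42 against 10.46, 10.54 and 10.46 (0.09, SE 0.08, adjusted p = 0.780), meeting at 10.46. The other 4 were Scd1 at 0.11, Fads2 at 0.03, the phosphatidate phosphatase gene Lpin1 at -0.04 and Acaca, the acetyl-CoA carboxylase gene, at -0.05.

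Several genes had more than 1 probe set, which read different stretches or isoforms of a transcript. Of the 74 probe sets, 66 were above background, and 48 of these (72.7%) were higher in the knockout, against 52% of all probe sets above background. At an unadjusted p under 0.05, 16 were higher and 1 lower, against 5.93% and 6.62% of all; probe sets of 1 gene share its RNA and are not separate evidence. Of 20 genes with 2 or more such probe sets, 10 had all of them higher, 1 had all lower, and 9 were divided. Mvd was the one with all lower.

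Probe sets of a gene could differ in size or direction. Lss gave -0.05 on the representative 1420013_s_at but 0.43 on 1426913_at (4.87, 5.38 and 5.16 against 5.59, 5.66 and 5.46, adjusted p = 0.314, limma) and 0.24 on 1420014_at. Both of the latter had groups that stood apart. The intervals of 1426913_at (upper bound 0.73) and of Insig2's 1417980_a_at (upper bound 0.62) reached past 1.5-fold, unlike those of the other probe sets above background. Cyp51 gave 0.10 on 1450646_at but 0.35 on 1422533_at, which read 7.12, 7.15 and 7.24 against 7.42, 7.64 and 7.50 (adjusted p = 0.204). Sc5d, too, had a steadier probe set, 1434520_at, with 5.96, 5.85 and 5.84 against 6.12, 6.08 and 6.01 (0.19, adjusted p = 0.490). Scd1 gave 0.26 on 1415965_at (adjusted p = 0.383). Of the 18 probe sets above background that were lower in the knockout, 1 had an unadjusted p under 0.05 (limma). It was the Fads2 probe set 1443838_x_at, at -0.26 (adjusted p = 0.369).

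The genes also varied together within the parental line. Parental replicate 2 held the highest of the 3 parental readings for 23 of the 32 genes, against 39% of all genes above background, and parental replicate 1 held the lowest for 19. The mean over the 32 genes, relative to the parental mean, was -0.06, 0.10 and -0.04 for the parental arrays, and the knockout arrays gave 0.05, 0.09 and 0.11. Parental replicate 2 was thus above 2 of the 3 knockout samples. Against parental replicate 1 or 3, between 21 and 26 genes were higher in each knockout sample, and against parental replicate 2, 12, 17 and 17 were. Without parental replicate 2 the median difference was 0.16 and 10 genes were higher at an unadjusted p under 0.05; without parental replicate 1 they were 0.05 and 1, without parental replicate 3, 0.08 and 2, and without knockout replicate 3, 0.08 and 1. Without knockout replicate 2 they were 0.13 and 4, with Fasn lower at that level. Pmvk was among the higher genes whichever of the 6 arrays was left out. No gene passed the adjusted threshold without any 1 of the 6 arrays.

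**Figure D4:**
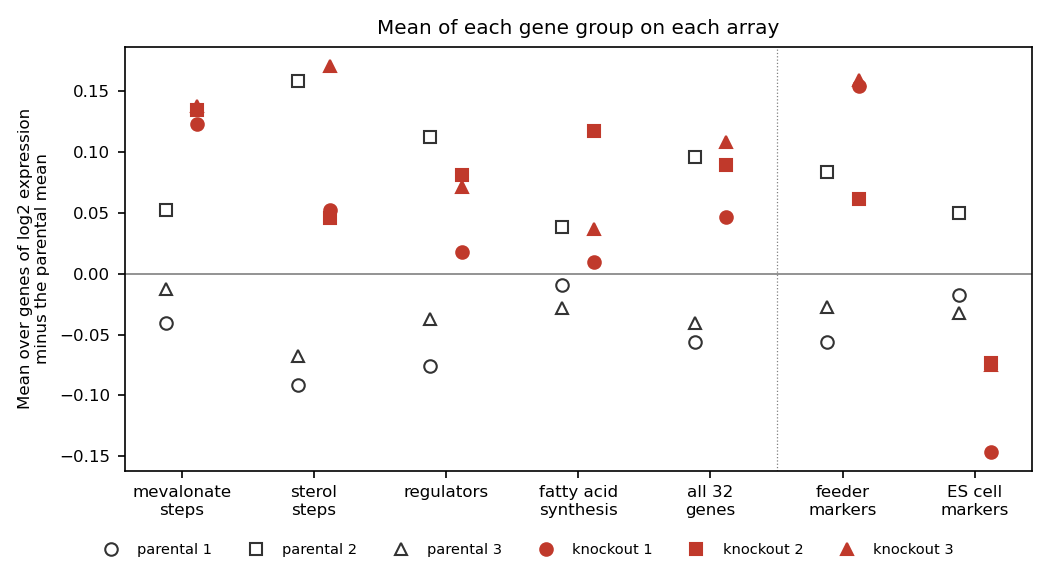
Mean over the genes of each group of log2 expression minus the parental mean (vertical axis), for the 4 roles, all 32 genes, 10 feeder markers and 8 ES cell markers; open symbols are parental and filled red symbols knockout arrays, with a shape per replicate number. The mevalonate steps are the one role whose knockout arrays all lie above the parental ones, and parental replicate 2 is the highest parental array in every group shown.

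Feeder fibroblast markers shared the order of the parental arrays with these genes, but not that of the knockout arrays. The mean level of the markers was 11.10, 11.24 and 11.13 in parental and 11.31, 11.22 and 11.31 in knockout samples. It was highest in parental replicate 2 within its line. Knockout replicate 2 had the lowest feeder mean of its line, while the mean over the 32 genes was lowest in knockout replicate 1. Of the 10 markers, 9 were higher in the knockout, none passed and 1, Lum, had an unadjusted p under 0.05. With the feeder marker mean of each array as a covariate, the median difference of the 32 genes was 0.01 (0.0088) and they divided into 16 higher and 16 lower. At an unadjusted p under 0.05, 0 genes were then higher and 3 were lower, Mvd (-0.30), Tm7sf2 (-0.43) and Sc5d (-0.50), with a lowest adjusted p of 0.327 (limma). Pmvk was then at 0.25 (SE 0.11), Sqle at 0.24 (SE 0.13), Idi1 at 0.28 (SE 0.13) and Hmgcs1 at 0.25 (SE 0.12), while Fdps was at 0.06 (SE 0.11) and Nsdhl at 0.09 (SE 0.11). Standard errors were wider for these 6 genes in this fit than without the covariate. The feeder mean itself differed between the lines, 11.16 in parental and 11.28 in knockout samples. The fit on 6 arrays therefore cannot fully tell a difference between the lines from one in feeder content, and the part of feeder content was not tested.

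Markers of other cells were checked in the same way. The 8 ES cell markers had mean levels of 10.63, 10.70 and 10.62 in parental and 10.50, 10.57 and 10.57 in knockout samples, all above background. Of these markers 0 passed, 2 were higher and 6 lower. Groups did not overlap, with the knockout below, for 4 (50%, against 10.2% of all genes above background). Nanog had the largest difference, -0.49 (adjusted p = 0.122, limma), and was the 1 with an unadjusted p under 0.05. Of 4 adipocyte markers measured, Fabp4, a fatty acid carrier gene, was the one above background, at 7.11, 8.15 and 7.24 against 7.83, 7.63 and 8.17, while Adipoq, Cidec and Pparg lay at or below it in every sample. Endoderm markers had mean levels of 4.15, 4.45 and 4.15 in parental and 4.18, 4.24 and 4.26 in knockout samples. Parental replicate 2 was thus the highest of all arrays for these markers. The part of ES cell, adipocyte and endoderm content in the values above was not tested.

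Genes around the pathway gave no call either. Of 16 measured genes that process SREBPs, act with them or are further targets, 0 passed, 10 were higher and 6 lower, and the median was 0.04. The largest difference was that of Acss2, the cytosolic acetyl-CoA synthetase, which read 5.85, 5.75 and 5.61 against 6.12, 6.02 and 5.99 (0.31, SE 0.09, adjusted p = 0.286, limma). Acsl3, a long-chain acyl-CoA synthetase, also stood apart at 0.27 (adjusted p = 0.285). Tmem97, a sterol-regulated membrane protein, was the lowest at -0.15 and stood apart with the knockout below. Groups did not overlap with the knockout above for 3 of the 16 genes (18.8%) and below for 1 (6.25%). Over all genes above background these shares were 8.5% and 10.2%. Of 10 genes of sterol efflux, storage and transport, 0 passed, 4 were higher and 6 lower, and the median was -0.04. They ran from Abcg1, a sterol exporter, at -0.19 to Npc2, a lysosomal sterol carrier, at 0.17. Of 9 genes that use isoprenoids, 0 passed, 4 were higher and 5 lower, and the median was -0.01. They ran from Ggps1, which makes geranylgeranyl diphosphate, at -0.20 to Dhdds, of dolichol synthesis, at 0.29 (adjusted p = 0.451).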

How the data were processed

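Values for 45101 probe sets on 6 Affymetrix arrays were deposited by the authors as log2 expression; they were made with RMA per the submitters' processing notes, with software, settings and chip definition not given in the sources used here. The log2 scale was read from the values, 2.12 to 13.98. Precision is limited by the 3 arrays per group.

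After 64 control probe sets were left out, 45037 were tested, of which the platform annotation named 1 gene for 34945, several for 932 and none for 9160. Knockout and parental arrays were compared with limma 3.58.1 under R 4.3.3 (lmFit, eBayes, two-sided), with Benjamini-Hochberg adjustment over all 45037 and a threshold of 0.05; unadjusted p-values and 95% intervals come from the same fit. On simulated data for this comparison over 45037 probe sets this test found 24.0% of the simulated log2 0.5 changes and 84.2% of those of log2 1. Array values are given for genes with an unadjusted p under 0.05, the extremes of each role, the 3 highest readings, Insig1, Srebf1 and Srebf2; other values printed by array were chosen after they were seen. Genes and lists were chosen with earlier results of these data known. Replicate numbers did not pair the arrays: deviations of same-numbered arrays correlated at 0.11, -0.36 and -0.29, against 0.37 for parental replicate 2 with knockout replicate 3 and 0.38 for parental replicate 3 with knockout replicate 2.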

Additional observations from a re-analysis of the deposited data

How the results depend on the processing

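No sterol or lipid synthesis gene passed the adjusted threshold under any alternative run: renewed quantile normalization, centring on array medians, the replicate block, a robust prior with intensity trend, a filter on background, no x_at or s_at probe sets, the feeder covariate, means over probe sets, the ordinary equal-variance test, and each array left out. Against 7 genes with an unadjusted p under 0.05 (limma), the replicate block gave 4, the feeder covariate 3, all lower, and leaving out 1 array 1 to 10. The median difference of 0.10 became 0.0088 under the feeder covariate, and ranged from 0.0525 to 0.16 when 1 array was left out. Over all probe sets, 181 passed, against 88 with the replicate block, 312 with the trend and robust prior, 30 under the feeder covariate, 1 with the ordinary test and 70 to 112 when 1 array was left out. With the feeder covariate the direction turned for 12 of the 32 genes, among them Fads1 (-0.0476), Acly (-0.0397) and Fasn (0.10) of the 17 followed through every alternative; it also turned for Srebf1 without parental replicate 2 (-0.19 to 0.0067 when 1 array was left out). Lss, outside the 17, turned from -0.05 to 0.43 without x_at and s_at probe sets, when 1426913_at represented it. In that run 23 genes were higher and 9 lower. The cause of these turns was not tested. The replicate numbers do not pair the arrays, so the replicate block does not show a weaker effect.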
